A study of Mus musculus with 4 samples.

Results

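Strong WT-only distal regions were stretches of open chromatin, away from gene ends, that had a peak in both libraries of mouse CD4 T cells with the nuclear protein TOX (WT) and in neither library of cells labelled as lacking it (KO). They numbered 2447 of the 97394 regions made by merging the overlapping peaks of 4 ATAC-seq peak lists. Of all regions, 8567 (8.80%) had this pattern of peaks, and 7921 of them were distal, with a midpoint more than 1 kb from either end of every protein-coding gene. That was 9.53% of the 83110 distal regions. The last step kept the regions whose strongest peak reached the median fold enrichment of the whole list in both WT libraries (4.13 for WT-1 and 3.93 for WT-2). The 2447 regions left were 2.94% of the distal regions and 30.9% of the distal regions with WT peaks alone. Without KO-2 the same steps kept 4117 regions, and without WT-1 they kept 3967. The opposite pattern, a peak in both KO and in neither WT library, was met by 1737 regions (1.78%). Of these, 1624 were distal and 206 were also at or above both KO medians. Fold enrichment is the height of a peak over the background that the authors' peak caller set for the same library. The regions were thus chosen by the peaks of all 4 libraries and selected on the WT fold enrichments, so everything below is a description with no test of WT against KO.

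The study transferred naive SMARTA CD4 T cells, which carry a transgenic receptor for a viral peptide, into mice bearing B16-GP61 tumors, a melanoma line that displays the peptide. All hosts had received cytoxan, a drug that depletes lymphocytes, and on day 11 the donor cells were sorted out of the lymph node that drains the tumor. The WT group (WT-1 and WT-2) was sorted as CD4+, Ly5.1+, Ly5.2+ and high for PD1, LAG3 and CD39. The KO group (KO-1 and KO-2) was sorted as CD4+, Ly5.1+, Ly5.2- and low for the same 3 proteins. Genotype, congenic marker and sort gate therefore cannot be told apart. The labels do not say whether the 2 libraries of a group came from separate animals, how the deletion was made, or which part of Tox was removed.

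Open regions far from gene starts are often enhancers, stretches bound by transcription factors that act on a gene at a distance. Which enhancers are open differs more between cell types than which promoters are open, and genes that define a cell type often have several enhancers in a row. TOX belongs to the HMG-box family of DNA-binding proteins and is best known for its roles in thymic T cell development and in chronically stimulated T cells.

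The WT lists held 56852 (WT-1) and 61489 (WT-2) peaks and the KO lists 43078 (KO-1) and 61773 (KO-2), and between 2.65% and 3.59% of the peak numbers in a list were missing from it. A peak within 1 kb of an end of Tox was present in both WT lists, with fold enrichments of 6.57 and 7.12, and in neither KO list. None of the 55 distal regions nearest to Tox was WT-only and 7 were KO-only. The defining genes of T cells (8 of 8, Cd3e and Cd4 among them) had a gene-end peak in all 4 libraries. Those of B cells (Cd79a, Cd79b, Ms4a1, Pax5, Ebf1, Cd22 and Blk among them) had one at 8 of 8 genes in both WT libraries, at 1 in KO-1 and at 3 in KO-2. Near these 8 B cell genes there were 53 distal peaks in WT-1 and 60 in WT-2, but 8 in KO-1 and 11 in KO-2. For the 8 T cell genes the numbers were 37, 39, 28 and 38. Myeloid markers (6 genes) had a gene-end peak at 2 in each of the 4 libraries, and Csf1r, Itgam, Adgre1 and Lyz2 had none in any. Dendritic cell markers (6 genes) had one at 3 in WT-1 and at 2 in each of WT-2, KO-1 and KO-2. At B cell markers, 16 of the 74 nearest distal regions were strong WT-only, against 3.28% over all genes. The numbers were 4 of 22 at myeloid markers and 5 of 22 at dendritic cell markers, where Flt3 had 3 of the 5. At natural killer cell markers they were 1 of 15. At T cell, CD8 T cell and melanocyte markers they were 0 of 54, 0 of 5 and 0 of 8. In bulk libraries a larger share of cells of another type and more open chromatin per cell cannot be told apart, and the part of other cells in the regions below was not tested.

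Sequence was at hand only for windows from 250 bases before to 50 after annotated starts (RefSeq, GRCm38.p6), and 25 such windows lay wholly inside 24 of the regions. These starts mark promoters that the gene-end rule passed over, because they are internal starts of coding genes or starts of noncoding RNAs. Of the 8 windows printed, 5 lie inside a strong WT-only distal region and show the kinds of start found there. The other 3 set them beside the upstream start of Rasgrp3, whose window had no peak, the start of Bank1, which had a WT-only peak, and the start of Bcl11a, which had a peak in all 4 libraries. They were chosen after their values were seen, except that Bcl11a, Bank1 and Rasgrp3 are among the 30 genes with most regions. Capitals mark matches, on either strand, to any of 15 short motifs. Here these are the E-box CAGCTG of the B and T cell factor E2A (Marchf1), the EBF motif CCCNNGGGA (Cd22, with an overlapping match on each strand), the ETS-IRF composite GAANTGAAA (Gm32249 and Bank1) and the GATA motif AGATAA (F630028O10Rik).
Rasgrp3 internal start: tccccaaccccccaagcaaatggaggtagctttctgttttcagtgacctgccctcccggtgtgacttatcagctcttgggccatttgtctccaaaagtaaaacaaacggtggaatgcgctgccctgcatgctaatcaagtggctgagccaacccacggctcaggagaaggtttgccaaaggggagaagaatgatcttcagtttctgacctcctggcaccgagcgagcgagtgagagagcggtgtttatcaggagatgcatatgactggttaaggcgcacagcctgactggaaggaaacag
Rasgrp3 upstream start: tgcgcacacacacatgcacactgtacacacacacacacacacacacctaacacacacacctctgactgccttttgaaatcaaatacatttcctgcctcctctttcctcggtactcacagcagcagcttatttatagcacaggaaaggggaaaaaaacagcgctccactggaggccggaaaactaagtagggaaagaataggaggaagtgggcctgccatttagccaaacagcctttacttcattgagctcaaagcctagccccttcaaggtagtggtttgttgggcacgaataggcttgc
Marchf1 internal start: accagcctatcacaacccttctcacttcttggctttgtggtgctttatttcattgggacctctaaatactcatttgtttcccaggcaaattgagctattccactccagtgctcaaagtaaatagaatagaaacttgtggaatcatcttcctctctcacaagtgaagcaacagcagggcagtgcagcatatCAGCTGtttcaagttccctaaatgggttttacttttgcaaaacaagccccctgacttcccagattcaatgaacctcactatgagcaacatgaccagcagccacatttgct
Cd22 start: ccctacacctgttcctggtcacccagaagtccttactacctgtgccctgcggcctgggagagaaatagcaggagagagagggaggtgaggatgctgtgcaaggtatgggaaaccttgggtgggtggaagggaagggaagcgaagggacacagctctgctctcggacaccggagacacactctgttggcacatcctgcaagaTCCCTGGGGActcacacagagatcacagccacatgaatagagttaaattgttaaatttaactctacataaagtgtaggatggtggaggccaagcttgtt
Gm32249 start: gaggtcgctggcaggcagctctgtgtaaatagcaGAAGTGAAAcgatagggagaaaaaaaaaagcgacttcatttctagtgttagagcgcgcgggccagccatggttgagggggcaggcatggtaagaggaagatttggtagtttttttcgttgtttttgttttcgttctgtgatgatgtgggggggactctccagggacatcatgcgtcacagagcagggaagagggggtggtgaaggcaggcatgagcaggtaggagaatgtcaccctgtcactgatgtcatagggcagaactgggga
F630028O10Rik start: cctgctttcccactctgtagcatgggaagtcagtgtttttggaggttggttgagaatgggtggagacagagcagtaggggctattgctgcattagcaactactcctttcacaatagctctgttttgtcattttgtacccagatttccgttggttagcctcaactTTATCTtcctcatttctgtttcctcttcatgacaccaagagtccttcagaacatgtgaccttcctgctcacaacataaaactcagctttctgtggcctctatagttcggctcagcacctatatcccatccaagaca
Bank1 start: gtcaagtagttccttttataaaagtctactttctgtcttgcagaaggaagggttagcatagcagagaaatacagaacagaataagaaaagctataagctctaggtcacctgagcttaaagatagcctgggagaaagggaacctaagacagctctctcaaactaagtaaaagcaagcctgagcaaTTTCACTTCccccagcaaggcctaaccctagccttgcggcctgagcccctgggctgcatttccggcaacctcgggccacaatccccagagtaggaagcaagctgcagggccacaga
Bcl11a start: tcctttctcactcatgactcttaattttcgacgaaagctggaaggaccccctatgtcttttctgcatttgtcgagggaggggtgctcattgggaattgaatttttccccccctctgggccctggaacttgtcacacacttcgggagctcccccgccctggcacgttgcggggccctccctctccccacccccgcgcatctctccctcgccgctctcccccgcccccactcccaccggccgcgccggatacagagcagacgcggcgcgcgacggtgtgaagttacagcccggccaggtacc

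The Rasgrp3 internal start lies at chr17:75465288-75465587 on the plus strand and its upstream start at chr17:75435655-75435954. The Marchf1 window is chr8:66386051-66386350 (plus), Cd22 chr7:30878979-30879278 (minus), Gm32249 chr11:99168062-99168361 (plus) and F630028O10Rik chrX:96239676-96239975 (plus). Bank1 is at chr3:136326017-136326316 (minus) and Bcl11a at chr11:24080445-24080744 (plus). Rasgrp3, an exchange factor for RAS in B cell receptor signalling, had fold enrichments of 11.1 (WT-1) and 10.6 (WT-2) over its internal start, with the mean WT summit 31 bp from it. The window of its upstream start had no peak in any library, but a WT-2 peak (3.96) lay within 1 kb of that start. Marchf1 encodes a ubiquitin ligase that lowers MHC class II on the surface of B cells and dendritic cells. It too was open over an internal start. Its internal start had 8.04 and 5.75, and neither of the 2 upstream starts lay under a peak. Hdac9, a histone deacetylase, had 4.59 and 5.51 over an internal start and no peak over its upstream start. At Pou2f1, Hip1 and Pisd, by contrast, another start had a peak in all 4 libraries while an internal start was WT-only. For Pou2f1, which encodes the octamer-binding factor OCT1, the WT-only start had 8.34 and 10.3 in the WT libraries. The shared start of that gene had 9.05 and 8.64 in the WT libraries and 8.06 and 9.44 in the KO libraries. Cd22, an inhibitory co-receptor of B cells, had 4.73 and 5.23. Gm32249, a noncoding RNA whose start is 7 bp from the summit, lies 13210 bp from the chemokine receptor gene Ccr7 and had 9.69 and 9.88.

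A start window was held by 0.981% of the strong WT-only distal regions and by 10.6% of the 11669 strong shared distal regions, which had a peak in all 4 libraries and met both WT medians. The median GC content was 49.0% over the 25 windows, 62.0% over 1543 windows inside strong shared distal regions and 52.7% over all 32851 starts. Starts of protein-coding genes made up 11, 1092 and 21045 of these. The 3 sets thus also differ in the kind of start, here and in the motif shares. The E-box CAGCTG was in 8 of the 25 windows (32%), in 15.4% of the windows in strong shared distal regions and in 16.3% of all starts. The ETS-IRF composite was in 3 (12%), against 1.30% and 1.83%, and the EBF motif in 2 (8%), against 8.36% and 6.56%. The RUNX motif TGTGGTTT was in 2 (8%), against 1.88% and 1.78%, the GATA motif in 3 (12%), against 5.64% and 11.2%, and the AP-1 motif TGANTCA in 2 (8%), against 5.57% and 7.81%. The motifs of PU.1 (AGAGGAAGT), OCT (ATGCAAAT) and NFAT (TGGAAAA) were in 1 window each. Those of ETS (CCGGAAGT), NF-kappaB (GGGAANTCC), T-box (AGGTGTGA), TCF/LEF (CTTTGAA), CTCF (AGGGGGCGC) and KLF (GGGTGTGG) were in none of the 25. The windows include 2 overlapping starts of Rnase6, a secreted ribonuclease gene, so they are not all separate. These are letters in the reference and not measured binding.

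Fold enrichment had a lowest, median and highest value of 4.13, 5.66 and 17.2 in WT-1, and WT-2 gave 3.94, 5.81 and 16.3. The lowest values sit at the medians because the rule put them there. The 2 values were within 1.5-fold of each other in 95.1% of the regions, and across regions the log2 values had a Pearson r of 0.741 and a Spearman rho of 0.674, given as a description because all regions share 2 libraries and had to pass in both. For the 5474 weaker WT-only distal regions, r was 0.313, rho 0.337 and the share within 1.5-fold 90.2%. Summits of WT-1 and WT-2 lay a median of 16 bp apart, and within 50 bp in 80.1% of the regions. In the weaker regions the figures were 26 bp and 68.6%. Median width was 562 bp, between the 317 bp of the weaker WT-only and the 795 bp of the strong shared distal regions. Most regions, 2203 of 2447, were made of a single peak from each WT library.

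**Figure D1:**
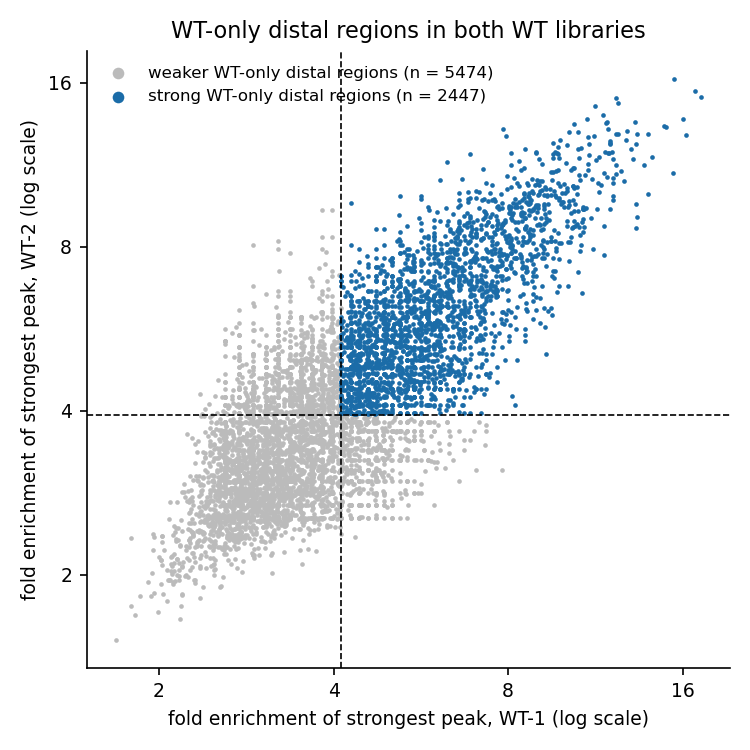
Fold enrichment of the strongest peak in WT-1 (x, log scale) and WT-2 (y, log scale) for 7921 WT-only distal regions. Each point is a region, dashed lines are the medians of the whole lists (4.13 and 3.93), and the 2447 strong regions (blue) fill the upper right corner by rule, reaching 17.2 and 16.3.

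The strongest regions lay near genes of many kinds. By the lower of the 2 within-list percentiles, the top region was at chr3:135191705-135192486, 20468 bp from Cenpe, which encodes a kinetochore motor. Its values were 15.5 for WT-1 and 16.3 for WT-2. The next was at chr2:148763616-148764616, near the cystatin gene Cst11, with 16.8 and 15.4, and the one after it at chr5:68735165-68736022, with 17.2 and 15.0 and the nearest coding gene 373692 bp away. Cacnb2, a calcium channel subunit, had 15.99 and 13.8 at an intragenic region. A region 26032 bp from Hes1, a repressor downstream of Notch, had 13.2 and 13.6. Foxo1, a factor for naive lymphocytes, had 12.4 and 12.9 at a region 94089 bp away. In 13 of the 20 strongest regions the WT summits were within 10 bp of each other.

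KO peaks were near some of these regions but not over them. The nearest KO peak was a median of 8676 bp away, against 5383 bp for the weaker WT-only distal regions. A KO peak lay within 1 kb of 221 regions (9.03%; 18.9% of the weaker ones), and 196 (8.01%) had none within 50 kb.

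Strong distal regions in WT seldom lacked a KO peak, and the strongest hardly ever. Of 15925 distal regions at or above both WT medians, 73.3% had a peak in both KO libraries, 10.4% in KO-2 alone, 0.936% in KO-1 alone and 15.4% in neither. Below the medians the shares were 37.2%, 22.6%, 3.44% and 36.8%. Regions were also put into 10 bins of equal width by the lower of their 2 within-list percentiles. The share with no KO peak was 45.8% in the lowest bin and 48.8% in the next. It then went down bin by bin to 8.81% in the ninth and 2.68% (26 of 969 regions) in the highest. KO-2, which had more peaks than KO-1, supplied most of the peaks found in 1 KO library alone.

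**Figure D2:**
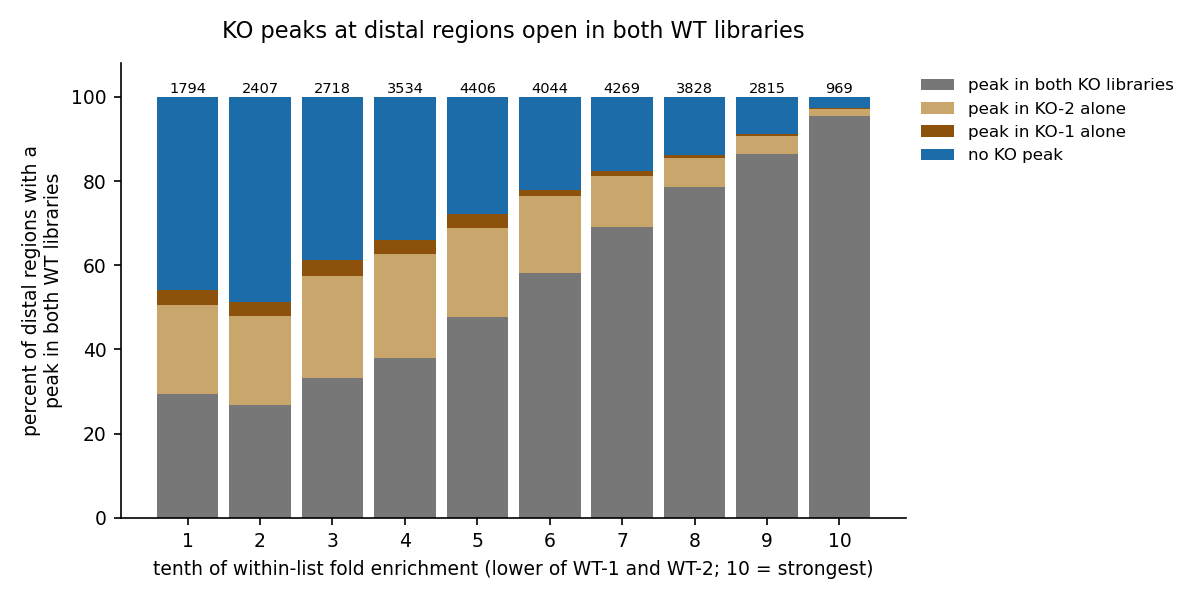
KO peaks at the distal regions with a peak in both WT libraries, by percentile bin of fold enrichment within the lists (x; number of regions above each bar) and as percent of the regions (y). The blue part, with no KO peak, goes from 45.8% in the lowest to 2.68% in the highest bin.

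Many regions sat close to the threshold. The strongest peak was exactly at a median in 66 of them, 349 were within 5% above a median, and 281 WT-only distal regions were within 5% below. Just inside was a region near Creb1 at chr1:64482094-64482447, with 4.13 in WT-1 and 4.38 in WT-2. Regions near Plekhm3 (4.13 and 5.09) and Adora1 (4.13 and 4.66) were equally close. Just outside were regions near Alcam at chr16:52468447-52468857 (4.23 and 3.93), Wdr11 (4.12 and 4.38) and Rab7 (4.12 and 3.94).

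The next merged region on either side was WT-only in 24.3% of 4894 cases, against 18.1% for weaker WT-only, 9.42% for strong shared, 4.96% for KO-only and 8.79% for all distal regions. The next region was KO-only in 0.858% of cases, against 2.34% for strong shared and 5.205% for KO-only distal regions. At least 1 neighbour was WT-only for 1011 regions (41.3%), and both were for 179. With a single WT library required, the share was 44.2% without WT-1 and 43.0% without WT-2. Neighbours come from the same 4 libraries as the regions themselves.

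**Figure D3:**
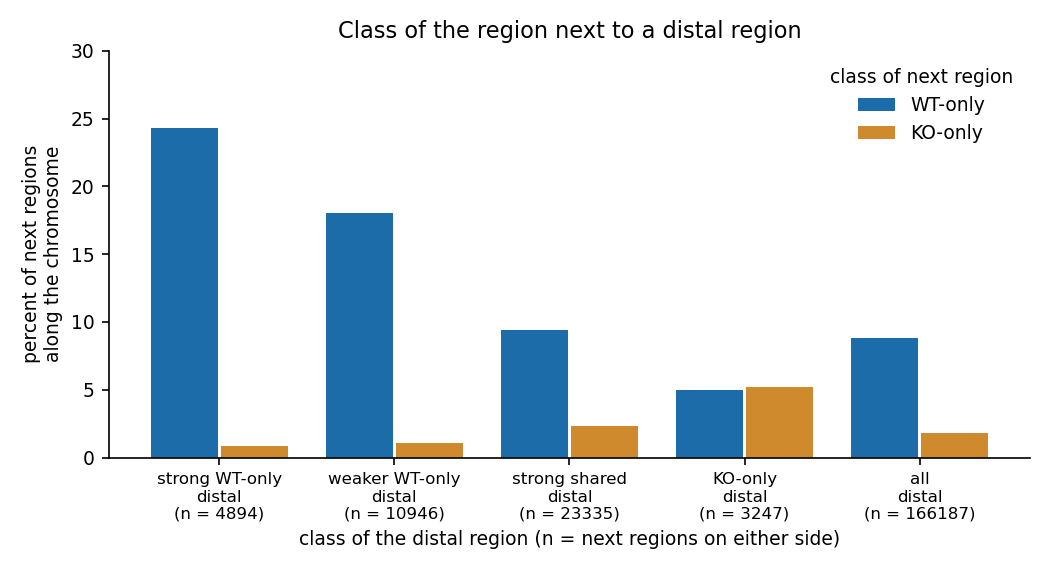
Percent of next regions along the chromosome (y) that were WT-only (blue) or KO-only (orange), for 5 classes of distal region (x; n is the number of next regions on both sides). WT-only neighbours made up 24.3% for the strong WT-only and 4.96% for the KO-only distal regions.

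Within 20 kb of each other stood 707 of the 2447 regions (28.9%), in 318 chains. There were 259 chains of 2, 48 of 3, 10 of 4 and 1 of 5 regions, and the median chain spanned 10492 bp. Besides their 707 regions the chains enclosed 333 other merged regions, of which 94 (28.2%) were WT-only, 47 had a peak in all 4 libraries and 1 was KO-only. The same 20 kb put 33.1% of the 5474 weaker WT-only, 51.0% of the 11669 strong shared and 17.5% of the 1624 KO-only distal regions in chains. Such a share depends on how many regions a class holds. It was 19.0% and 8.50% with a −log10 q of at least 5 and 10 in every library, 3.90% with the 20000 strongest peaks of each list and 5.89% with the upper quartile in place of the median, settings that keep fewer regions. The chain with most regions, chr13:83045414-83085647, lay 418750 bp from the nearest protein-coding gene, Mef2c, which encodes a factor of B cell and myeloid development. Its 5 regions had fold enrichments from 4.89 to 8.78 in WT-1 and from 4.30 to 7.65 in WT-2. Of the 6 other merged regions in its span, 3 were WT-only and none had a peak in all 4 libraries.

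There were 10 chains of 4 regions. At Ciita, the master activator of MHC class II genes, 4 regions between chr16:10487545 and 10516666 had 5.07, 6.35, 6.67 and 8.77 in WT-1 and 5.996, 4.80, 7.11 and 9.74 in WT-2. All 4 were inside the gene, and 2 of the 4 other merged regions in the span were WT-only. At Lrrk2, a large kinase gene expressed in B cells and myeloid cells, the chain chr15:91633706-91658682 held its 4 regions and no other merged region, the strongest with 11.8 and 13.5. Rgs13, a regulator of G protein signalling in germinal centre B cells, had 4 at chr1:144173261-144200940, from 6.45 to 7.16 in WT-1 and from 5.04 to 7.56 in WT-2. Il5ra, an interleukin receptor gene, and Trnt1 shared 4 at chr6:106725650-106761465, with up to 10.6 and 10.8. Further chains of 4 lay at Chd1, Exoc6, Rasal1 with Dtx1, Strbp with Crb2, and Cdh5.

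**Figure D4:**
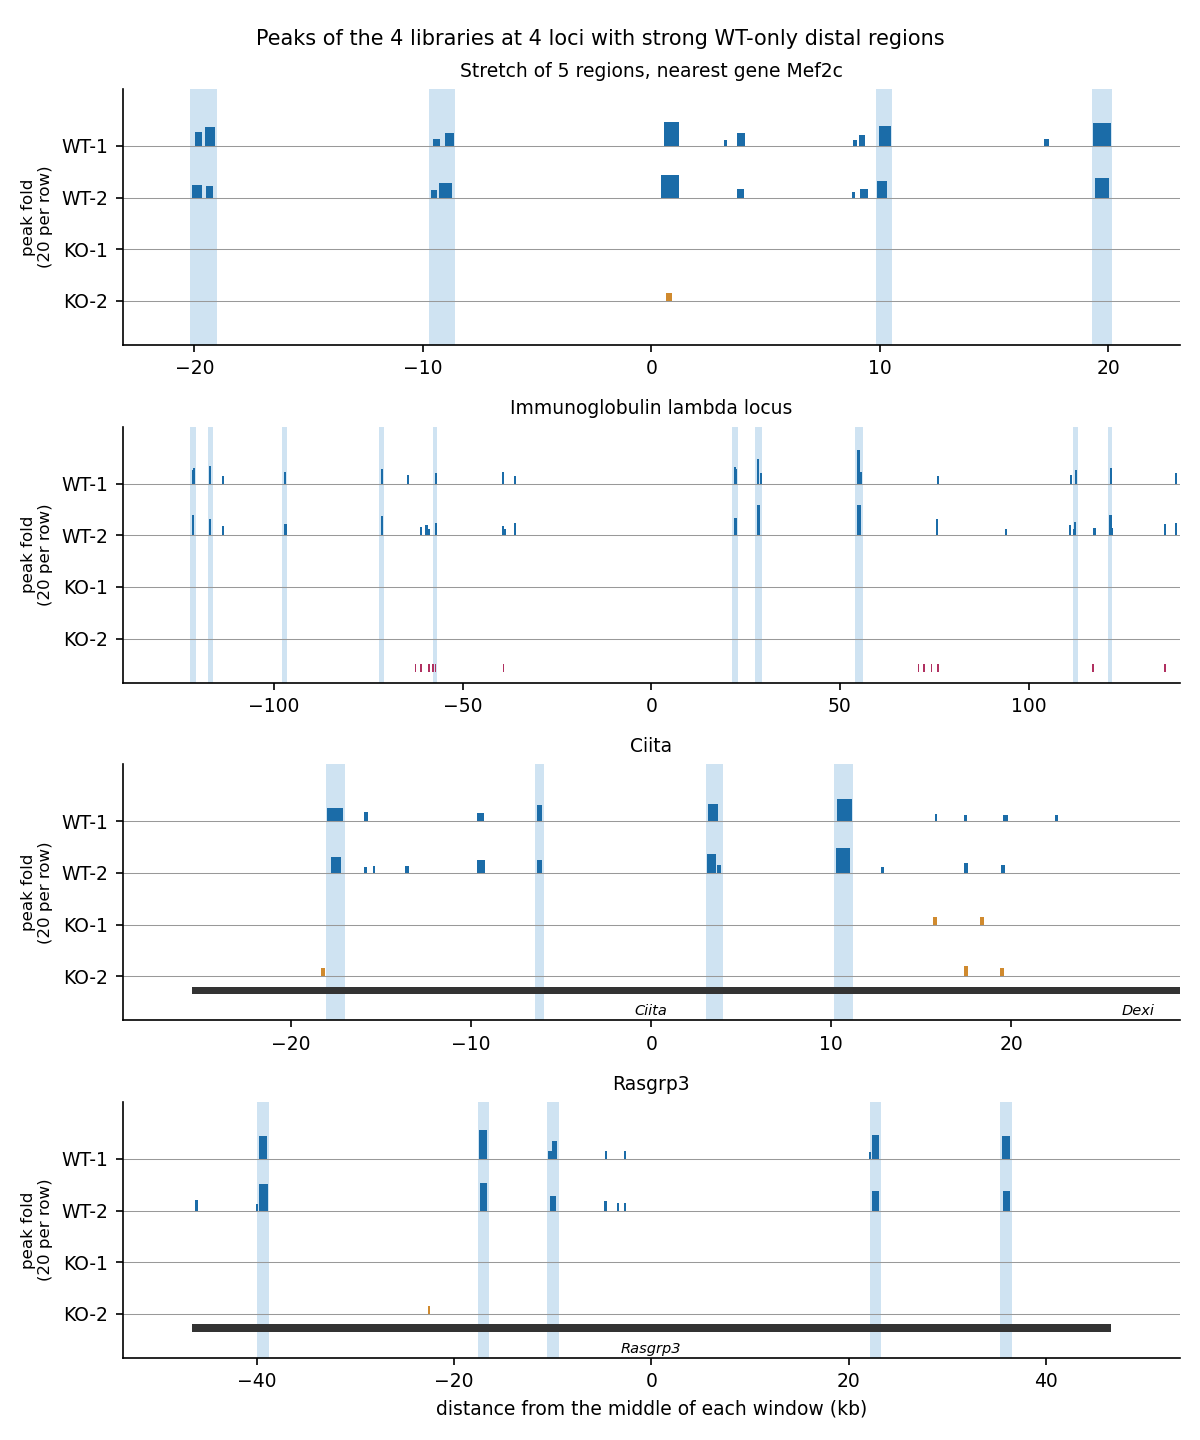
Peaks of the WT (blue) and KO (orange) libraries at 4 loci, against the distance from the middle of each window (x, kb); bar height is fold enrichment on a scale of 20 per row, shading marks strong WT-only distal regions, black bars are protein-coding genes and red ticks immunoglobulin segments, and the narrowest peaks are drawn widened. The immunoglobulin lambda window holds 21 and 25 WT peaks and none in KO, and the Rasgrp3 window 9 and 10 WT peaks, none in KO-1 and 1 in KO-2.

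Chromosomes differed in their share of these regions. They made up 5.69% of the distal regions on chromosome 19 (106 of 1863), 4.02% on chromosome 11 and 3.82% on chromosome 13. The lowest shares were 1.42% on X (31 of 2176) and 1.71% on chromosome 14, and the autosomes together had 2.99%. Of the strong distal regions that were either WT-only or shared, 23.1% were WT-only on chromosome 19, 17.4% on the autosomes and 11.9% on X. Windows of 1 Mb held at least 1 region in 1090 of 2542 cases and 5 or more in 97.

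The fullest window, with 11 regions, was 19 to 20 Mb of chromosome 16, which holds the immunoglobulin lambda locus. Antigen receptor loci were then looked at together, a choice made after this was seen. Among the distal regions within 100 kb of lambda segments, 10 of 26 (38.5%) were strong WT-only. WT-1 had 17 distal regions with a peak there and WT-2 25, while KO-1 and KO-2 had none. Immunoglobulin kappa and heavy chain loci had 5 of 81 and 6 of 94, and here the KO libraries did have peaks. At kappa 37 and 56 distal regions had a WT-1 and a WT-2 peak and 16 and 24 a KO-1 and a KO-2 peak, with 10 in all 4 libraries. At the heavy chain the numbers were 48, 61, 25 and 50, with 20 in all 4. The strongest of the kappa regions, chr6:70735154-70736141, had 11.99 in WT-1 and 12.5 in WT-2. T cell receptor alpha and delta had 0 of 102, with 10 KO-only regions, and beta and gamma had 1 of 46 and 2 of 16. By share in the class, gamma (12.5% of its 16 distal regions, flanks of up to 100 kb included) stood above kappa (6.17%) and the heavy chain (6.38%). Both gamma regions lay outside the segments, 64115 and 65827 bp from the nearest, Trgc4. They were nearer to the coding gene Stard3nl, 20645 and 22357 bp away. The lambda and kappa loci resembled the 8 B cell markers given above, with higher numbers in each WT library than in either KO library. The heavy chain differed, as its number for KO-2 (50) was above that for WT-1 (48). The part of B cells in these values was not tested.

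The regions lay inside genes about as often as other distal regions and farther from gene ends than shared ones. A protein-coding gene held 1305 of them (53.3%), against 55.7% of weaker WT-only, 56.4% of strong shared, 57.9% of KO-only and 50.6% of all distal regions. The median distance to the nearest gene end was 21167 bp, with quartiles of 8679 and 52040 bp. It was 18377 bp for weaker WT-only, 15116 bp for strong shared, 22602 bp for KO-only and 25977 bp for all distal regions. A start of a coding gene within 1 kb was recorded for 23 regions (0.940%) and for 9.32% of strong shared distal regions. With starts of all gene types the figures were 79 regions (3.23%) and 13.7%. Starts were known for 17274 of 21631 coding genes, and for none on chromosome 18. The annotation used here gives no exons, so intronic and exonic positions were not separated.

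No coding gene lay within 100 kb of 202 regions (8.26%), against 4.79% of strong shared and 17.6% of all distal regions. The farthest, at chr2:46525223-46525669, was 1408004 bp from Zeb2 and had 4.43 and 4.36. Strong ones among them were at chr3:143674246-143675242, 513786 bp from Lmo4, with 12.8 and 12.6, and at chr9:33482903-33483785, 725524 bp from Ets1, with 12.1 and 11.9. A further one, chr16:19178848-19180232, with 13.1 and 11.6, was inside the lambda locus.

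The remaining 2245 regions were assigned to the nearest protein-coding gene within 100 kb. They fell to 1624 genes, 11.9% of the 13625 genes with any distal region, and made up 3.28% of these genes' distal regions. A gene had 1 region in 1208 cases, 2 in 275, 3 in 97 and 4 or more in 44, and these 44 genes held 196 regions. Nearness does not show which gene a region acts on.

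The genes with most regions were Bcl11a and Foxp1, with 7 each, and Ebf1 and Rftn1, with 6 each. Bcl11a, a zinc-finger factor needed for B cell development, had 7 of its 34 distal regions in the class and none KO-only. Their fold enrichments ran from 5.16 to 10.6 in WT-1 and from 3.96 to 11.6 in WT-2, and 21 and 28 of its distal regions had a WT-1 and a WT-2 peak, against 2 and 2 in the KO libraries. Its start, printed above, was open in all 4 libraries, with 3.32 and 4.08 in WT and 2.69 and 3.65 in KO. Foxp1, a forkhead factor of naive lymphocytes, also had 7, but of 111 distal regions, and 47 and 55 of those had KO-1 and KO-2 peaks. Ebf1, which specifies the B lineage, had 6 of 29, the strongest at chr11:44950274-44950846 inside the gene, with 11.0 and 12.7. KO-1 had 1 and KO-2 had 2 distal peaks at Ebf1. Of its 2 annotated starts, 1 had no peak and the other a WT-2 peak alone. A region within 1 kb of an end of Ebf1 had a peak in all 4 libraries, with 8.77 and 8.02 in WT and 2.99 and 7.98 in KO.

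Rftn1, a raft protein of B cell receptor signalling, had 6 of 40, and Lrrk2 had 5 of 9, with no KO peak at any of the 9. Rasgrp3 had 5 of 11, all inside the gene, with 8.89, 11.1, 6.73, 9.29 and 8.92 in WT-1 and 10.4, 10.6, 5.62, 7.39 and 7.68 in WT-2. The 5 assigned to Hira, a histone chaperone gene, lay on the side of the lambda locus. Tns3, Vti1a, Marchf1, Iqsec1, Camk2d, Elmo1 and Lpp also had 5 each. Among these, Elmo1, an adaptor for cell migration, had 3 KO-only distal regions and Camk2d, a calmodulin-dependent kinase, had 1. Genes with 4 included Bank1, a B cell scaffold (4 of 22), Plpp3, a lipid phosphatase (4 of 14), Map2k6, a kinase upstream of p38 (4 of 13), and Bhlhe40, a repressor with a role in T helper cytokine production (4 of 16).

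Lists of genes with known roles were then counted, each beside the 3.28% of all genes. B cell receptor signalling and surface genes had 42 of 319 distal regions in the class (13.2%), at 21 of 29 genes. Syk, the kinase next to the receptor, had 3, the strongest at chr13:52572015-52573441 with 10.7 in WT-1 and 12.1 in WT-2. Plcg2, the phospholipase it activates, had 3 (up to 7.49 and 8.34), and Tnfrsf13b, a receptor for B cell survival factors, had 3 (up to 9.23 and 9.95). B lineage transcription factors had 29 of 332 (8.73%), at 11 of 18 genes. Apart from Bcl11a and Ebf1, Pax5 had 3 of 23, Mef2c 3 of 27, Bach2 3 of 74 and Tcf4 2 of 28. MHC class II presentation genes had 9 of 83 (10.8%). They were 4 at Ciita and 1 each at Cd74, Cd86, Cd80, H2-Eb1 and Ctss, with 8.07 and 9.21 at Cd74, the invariant chain.

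Myeloid and dendritic cell lists also stood above the figure for all genes. The myeloid list had 10 of 99 (10.1%), with 2 at Adgre1, which encodes the macrophage marker F4/80, 2 at Ly86 and 1 at Csf1r. The Adgre1 regions had 7.07 and 5.82 in WT-1 and 8.95 and 6.003 in WT-2. The dendritic cell list had 10 of 100 (10.0%). There were 3 at the cytokine receptor gene Flt3, 2 each at Sirpa and Tcf4 and 1 each at Siglech, Zbtb46 and Ccr7. These lists overlap, since Tcf4 is also a B lineage gene here, and Cd74 is in both the B cell receptor and the MHC class II list. Natural killer cell genes had 3 of 44 (6.82%), and melanocyte genes 0 of 19. Together the B cell, MHC class II, myeloid and dendritic lists held 97 regions at 50 of 95 genes. That was 10.8% of their distal regions, against 3.18% at all other genes, and 4.32% of the assigned regions. Members of all 17 lists held 145 regions, so 2100 (93.5%) were nearest to genes in no list.

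T cell lists ranged from 0.625% to 5.29%, and all but the Th1, naive and memory, and CD8 lists were below the figure for all genes. Pan T cell genes had 6 of 291 (2.06%), of which 4 were at Ets1, a factor shared with B cells, and 1 at Cd6. Inhibitory receptor and exhaustion genes had 8 of 343 (2.33%), with 2 at Prdm1 and 1 each at 6 others, among them Ctla4, Entpd1, Btla and Irf4. Entpd1 encodes CD39, a protein used in the sort, and its region had 5.32 in WT-1 and 6.70 in WT-2. Pdcd1 (PD1) and Lag3 had none, of 13 and 6 distal regions, and 1 KO-only region each. Activation genes had 9 of 354 (2.54%), follicular helper genes 3 of 177 (1.69%), regulatory T cell genes 1 of 160 (0.625%), cytotoxic genes 2 of 75 (2.67%), CD8 T cell genes 2 of 58 (3.45%) and housekeeping genes 1 of 32 (3.13%). Naive and memory genes had 20 of 512 (3.91%), and 7 of those were at Foxp1.

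The Th1 list had 10 of 189 (5.29%). Bhlhe40 had 4 and Ifng, the gene of the Th1 cytokine interferon gamma, had 2. The Ifng regions were at chr10:118406855-118407351, with 9.23 in WT-1 and 7.64 in WT-2, and at chr10:118501448-118502042, with 7.32 and 8.45. They lay 33943 and 55851 bp from the gene on either side. Of the 25 distal regions at Ifng, 9 had a peak in all 4 libraries and none was KO-only. Fasl, the death ligand, Runx3 and Eomes had 1 each, with 7.12 and 7.39 at Fasl, and Tbx21, the Th1 master factor, had 0 of 4. Natural killer and CD8 T cells use several of these genes as well, and 3 lists share Eomes.

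**Figure D5:**
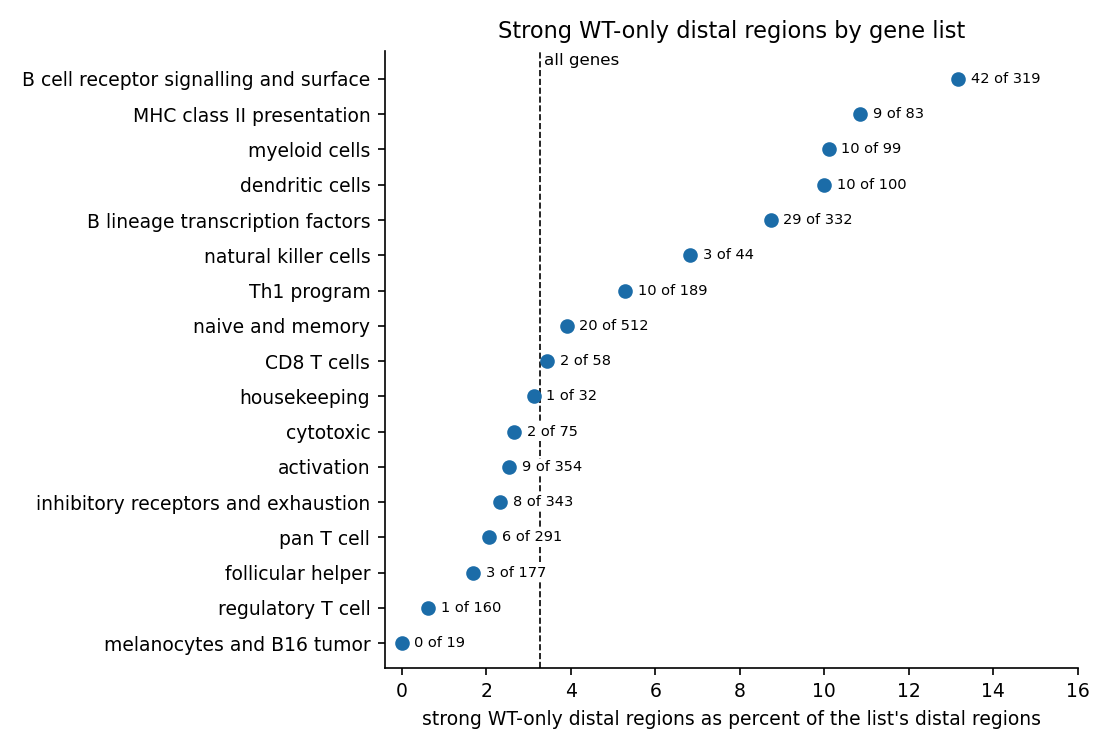
Strong WT-only distal regions as percent of the distal regions assigned to the genes of each list (x), for 17 lists (y); numbers give regions of the class and all distal regions, and the dashed line is the 3.28% of all genes. The 5 lists at the top, from 13.2% down to 8.73%, are the B cell, MHC class II, myeloid and dendritic lists.

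Most genes with a region were open at an end in all 4 libraries. This held for 1029 of 1624 genes (63.4%), while 79 (4.86%) had WT peaks alone at their ends, 1 had KO peaks alone and 22.2% had none. Of 4969 genes with a strong shared distal region and no strong WT-only one, 59.4% were open in all 4 libraries, 1.53% in WT alone, 0.282% in KO alone and 28.5% in none. Genes open at an end in WT alone included Bank1 (8.21 in WT-1 and 10.6 in WT-2), Blnk, the linker of the B cell receptor (7.05 and 8.31), Ly86 (8.48 and 7.97), Syk (6.74 and 5.59), Lyn, a SRC kinase (5.99 and 5.73) and Pax5 (5.00 and 5.48). Of these genes, Ly86 is on the myeloid list and the others are on the B cell lists. The 79 also held genes outside all of the lists. Among them were Slc17a4, a transporter gene (8.28 and 9.13), Pxdc1 (8.79 and 7.33) and Prr5, a gene for a subunit of the mTOR kinase complex (8.01 and 7.28). These 9 were picked after their values were seen. These ends entered by no strength rule, so some are weaker than the regions themselves.

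Some regions were near microRNA genes. One of them, chrX:96239663-96240223, holds the F630028O10Rik start printed above and lies 2594 bp from Mir223, a microRNA gene known from myeloid cells. Its fold enrichments were 5.35 (WT-1) and 5.65 (WT-2). The mature sequences (RefSeq, GRCm38.p6) follow, with the seed, bases 2 to 8, in capitals.
mmu-miR-223-5p: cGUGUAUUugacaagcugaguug
mmu-miR-223-3p: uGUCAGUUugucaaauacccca

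Mir140 lay 768 bp from a region with 5.31 and 4.11, and the Mir15b and Mir16-2 pair 7220 and 7059 bp from a region with 6.16 and 6.21. Mir7011, Mir3086 and Mir6541 overlapped a region. No microRNA level was measured. The share of other distal regions near microRNA genes is not given, so nearness is not shown to be particular to these regions.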

How the data were processed

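ATAC-seq peak lists of 2 WT and 2 KO libraries were used, grouped and numbered as in the labels. The tools, per the submitters' processing notes, were MACS2, BWA, deepTools, Picard and SAMtools, on GRCm38 (mm10). Their versions, settings, transposase shift and filters were not given in the sources used here. Each list belonged to 1 library. Its fold enrichment is the authors' ratio of peak to background in that library. The −log10 q deposited beside it comes from the same peak calls, and the deposited score was not used. Every deposited −log10 q was above 2. Read numbers are not known, so no counting interval was set, and an absent peak can be a shallow or a removed one.

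Peaks overlapping by at least 1 bp were merged. Distal meant more than 1 kb from either end of every protein-coding RefSeq gene (GRCm38.p6). "Within-list median" was read as the median over the whole list of a WT library. Regions went to the nearest coding gene within 100 kb, and chains joined regions at most 20 kb apart. No genome was used here, so the planned search of 15 motifs in peak summits was not run and start windows took its place. Positions are 1-based. Named were the 20 strongest regions, 30 genes, 10 chains and up to 6 genes a list, by rule. Cdh5's chain, start windows, antigen receptor loci, microRNAs, WT-only gene ends and the genes of the sort or deletion were chosen after values were seen. Regions and lists were chosen with earlier results of these data known. No test was run. Merging, classes and chains were checked on simulated peaks. Python 3.11.15, pandas 2.3.3, numpy 2.4.6, scipy 1.17.1 and matplotlib 3.10.9 were used. Some items that the rules select are not reported here.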

Additional observations from a re-analysis of the deposited data

How the results depend on the processing

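Of 132 values recomputed under 19 other settings, 90 stayed within 1.5 times the count, or within the 95% binomial interval of the percentage or median, and 42 did not. That interval is only a yardstick, since regions share libraries. The number of regions, 2447, became 1450 and 800 with a −log10 q of at least 5 and 10 in every library. It was 1077 with at least 5 asked of WT alone, 308 with the 20000 strongest peaks of each list, 509 with the upper quartile in place of the median, and 3130 with the median taken over the WT-only distal regions. Leaving out a library gave 2596 to 4117, with 4117 without KO-2, 3967 without WT-1, 3290 without WT-2 and 2596 without KO-1. The share in chains, 28.9%, was 19.0%, 8.50%, 15.9%, 3.90% and 5.89% under the first 5 of these settings, which keep fewer regions. It was 31.5% with the other median, 31.3% when a KO peak had to cover 50% of the WT part, 30.8% with −log10 q as strength, 18.8% and 43.5% with gaps of 10 and 50 kb, and 29.0% to 33.6% without a library. WT-only neighbours, 24.3%, were 29.5%, 26.3%, 22.8%, 21.6% and 26.9% under the same 5 settings and 20.3% with summits widened by 100 bp. They were 25.2% to 44.2% without a library, with 44.2% without WT-1 and 43.0% without WT-2, where 1 WT peak is enough. The share inside genes moved with the 20000 strongest peaks alone, to 49.7%, and was 52.6% to 53.5% without a library. The median distance to a gene end, 21167 bp, was 23236 bp with the 20000 strongest, 26151 bp with regions over 5 kb from gene ends and 19233 bp with −log10 q as strength. Regions at B cell genes, 3.16% of those assigned, were 4.38% with the upper quartile and 2.30% to 3.02% without a library. Genes open at an end in all libraries, 63.4%, were 57.9%, 52.8%, 59.9%, 52.5% and 58.4% under the same 5 settings, 57.7% with widened summits and 57.9% with the cover rule. The share at myeloid and dendritic genes, 0.891%, stayed in its interval throughout. No paired analysis was possible because no result comes from a test: the regions have no peak, and so no value, in either KO library. Depth is unknown, so a region without a KO peak is not shown to be closed.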
